A study of Mus musculus with 12 samples.

Results

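The genes described are those of the cytosolic ribosomal proteins, the proteins that together with ribosomal RNA build the translating ribosome outside mitochondria. They were taken from the deposited gene counts by symbol (Rpl or Rps with a number, and Rplp0, Rplp1, Rplp2 and Rpsa, without symbols ending in -ps and S6 kinases) and by depth, with at least 500 counts in each of the 11 usable libraries. Of 89 genes with such symbols, 69 met the minimum, out of 54532 genes in the table, and by symbol 36 of the 69 belong to the large subunit and 33 to the small one. GENCODE annotates 63 of them as protein coding, 34 and 29 by subunit, and 6 as processed pseudogenes that carry a gene-like symbol: Rps3a2, Rps3a3, Rps4l, Rps12l1, Rpl6l and Rpl32l. The members closest above the minimum were Rplp2 with a lowest count of 505 and Rps16 with 541. The closest below were Rpl30 with 499 and Rpl35a with 489.

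The RNA came from E14 mouse embryonic stem cells, a line grown here in medium with LIF and the kinase inhibitors PD0325901 and CHIR99021, and poly(A) RNA was sequenced. Wild-type cells, p53 knockout (KO) cells and Dux KO cells were exposed to 1 uM doxorubicin for 6 h and then moved to medium without the drug, or given DMSO vehicle in the same way. Doxorubicin poisons topoisomerase II and breaks DNA, p53 is the transcription factor that such breaks activate, and Dux is a transcription factor of the early embryo. Each of the 6 groups has 2 libraries. The knockout libraries come from lines numbered 1 and 2, so their spread also holds the difference between lines, and the 2 wild-type libraries of a group, called a and b, share 1 line name. The length of the drug-free period is not stated.

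Ribosomal protein mRNAs are among the most abundant in growing cells, and cells make the proteins in near-equal amounts and degrade those that find no ribosome. Their mRNAs typically start with a cytosine followed by a run of pyrimidines, the 5' terminal oligopyrimidine motif, through which mTOR and LARP1 set how strongly they are translated. Several of the free proteins, Rpl5 and Rpl11 with 5S ribosomal RNA above all, bind the ubiquitin ligase Mdm2 and so stabilise p53.

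The starts of the genes were read from RefSeq promoters on GRCm38.p6, in which 49 of the 69 members were found. The following windows of 30 bases, 15 on each side of the start, are shown for 4 members whose first 5 transcribed bases are all C or T and for 5 members, named again below for their response, in which they are not. Capitals mark the longest pyrimidine run that touches any of bases 11 to 25 of the window, and this run need not cover the start.
Rps6 (chr4:86857353-86857382, minus strand): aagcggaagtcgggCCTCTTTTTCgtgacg
Rpl35 (chr2:39005117-39005146, minus strand): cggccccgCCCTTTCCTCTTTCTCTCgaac
Rps18 (chr17:33955651-33955680, minus strand): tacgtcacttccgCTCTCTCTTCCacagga
Rps15a (chr7:118116133-118116162, minus strand): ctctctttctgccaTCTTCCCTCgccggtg
Rpl11 (chr4:136053379-136053408, minus strand): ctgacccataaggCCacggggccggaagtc
Rpsa (chr9:120127751-120127780, plus strand): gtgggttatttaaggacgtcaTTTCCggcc
Rpl7l1 (chr17:46782642-46782671, minus strand): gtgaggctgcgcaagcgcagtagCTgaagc
Rps27l (chr9:66946071-66946100, plus strand): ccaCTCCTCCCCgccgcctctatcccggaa
Rps28 (chr17:33824548-33824577, minus strand): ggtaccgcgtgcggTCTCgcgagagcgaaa
A start of 5 pyrimidines was annotated in 13 of the 49 members, 26.5%, against 5.28% of 27025 genes with a promoter in the table. A run of 8 pyrimidines near the start was found in 42.9% of members and 13% of all genes. The annotated start can lie some bases from the one used in these cells, so a missing run says nothing of the mRNA itself.

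The same promoters, from 250 bases before to 50 bases after the start, were searched on both strands for short words of factors known at ribosomal protein genes. CCGGAAG, a core word of ETS factors such as GABPA, was in 21 of 49 members, 42.9%, against 9.93% of all promoters. GGGCGG, the core of SP1 sites, was in 63.3% of members and 38.2% of all, AAGATGGC (YY1) in 8.16% and 3.19%, CACGTG (the E-box of MYC) in 10.2% and 8.09%, and TATAAA in 12.2% and 15.7%. For 3 members that recur below, the 100 bases before the start are printed with CCGGAAG or GGGCGG, on either strand, in capitals.
Rps7 (chr12:28635954-28636053, minus strand): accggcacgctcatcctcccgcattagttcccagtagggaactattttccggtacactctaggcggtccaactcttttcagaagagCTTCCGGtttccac
Rps18 (chr17:33955666-33955765, minus strand): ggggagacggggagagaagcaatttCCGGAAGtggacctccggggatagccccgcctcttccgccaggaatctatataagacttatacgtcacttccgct
Rpl12 (chr2:32961612-32961711, plus strand): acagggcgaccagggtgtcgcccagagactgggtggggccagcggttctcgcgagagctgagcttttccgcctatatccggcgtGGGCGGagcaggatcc

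The deposited counts of Dux KO control 2 are identical, over 54532 genes, to those of the first Dux KO drug library and were left out. The Dux KO vehicle group therefore rests on control library 1, whose spread is taken from the remaining groups. Reads of control 2 were recovered from its separate FPKM values, and Dux KO results are given again with them. Total counts ran from 23270358 to 56795858 in the 11 libraries. The Dux KO libraries had 50796507 or more, and the wild-type and p53 KO libraries had 32807053 or fewer. Depth thus goes with genotype in every comparison of Dux KO with wild type, and its part was not tested. Trp53, the gene of p53, had 72.4 and 39.8 CPM (counts scaled to library size) in the p53 KO vehicle libraries and 95.5 and 42.6 in the drug libraries, against 193, 159, 135 and 133 in wild type. Duxf3, the Dux gene, had 21.6 and 22.8 CPM in the wild-type drug libraries and 0 in both Dux KO drug libraries. Summed over 10 pluripotency markers, all of them measured, the level was 5547 to 5568 CPM in wild-type vehicle and 949 to 1076 after the drug, 5044 to 5230 and 2623 to 3225 in p53 KO, and 5362 to 6468 and 2097 to 2358 in Dux KO. The sum over 6 primitive endoderm markers was 12.4 to 12.98 and 34.2 to 36.6 CPM in wild type, 6.99 to 9.29 and 20.1 to 21.7 in p53 KO, and 3.84 to 5.93 and 14.8 to 17.8 in Dux KO. Of these 6 markers, 2 to 5 were under 1 CPM in each vehicle library and 1 or 2 in each drug library. Of 8 fibroblast markers 5 were measured, and their sum was 10.9 to 12.04 CPM in wild-type vehicle and 28.25 to 30.8 after the drug, 13.7 to 19.9 and 24.7 to 28.6 in p53 KO, and 11.8 to 13.3 and 24.7 to 30.1 in Dux KO. In wild type 3 of the 5 rose and 1 fell. In each library 2 or 3 of the 5 were under 1 CPM. Trophectoderm markers summed to 59.99 to 101 CPM under vehicle and 59.2 to 90.2 after the drug. Of the 6 in that list, 3 were under 1 CPM in each vehicle library and 2 or 3 in each drug library. The part of these shifts in the ribosomal protein results was not tested, and in bulk RNA fewer cells of a type and less RNA per cell cannot be told apart.

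Together the 69 genes took 1.97% and 2.11% of the counts in the wild-type vehicle libraries and 1.31% and 1.07% in the wild-type drug libraries. In p53 KO the share was 2.00% and 2.03% under vehicle and 1.56% and 1.39% after the drug. In both genotypes the drug libraries lay below all vehicle libraries. In Dux KO it was 1.95% in control library 1, 3.14% in the recovered control library 2, and 1.95% and 1.84% after the drug. The recovered library was the highest of all 12 for 66 of the 69 genes.

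**Figure D1:**
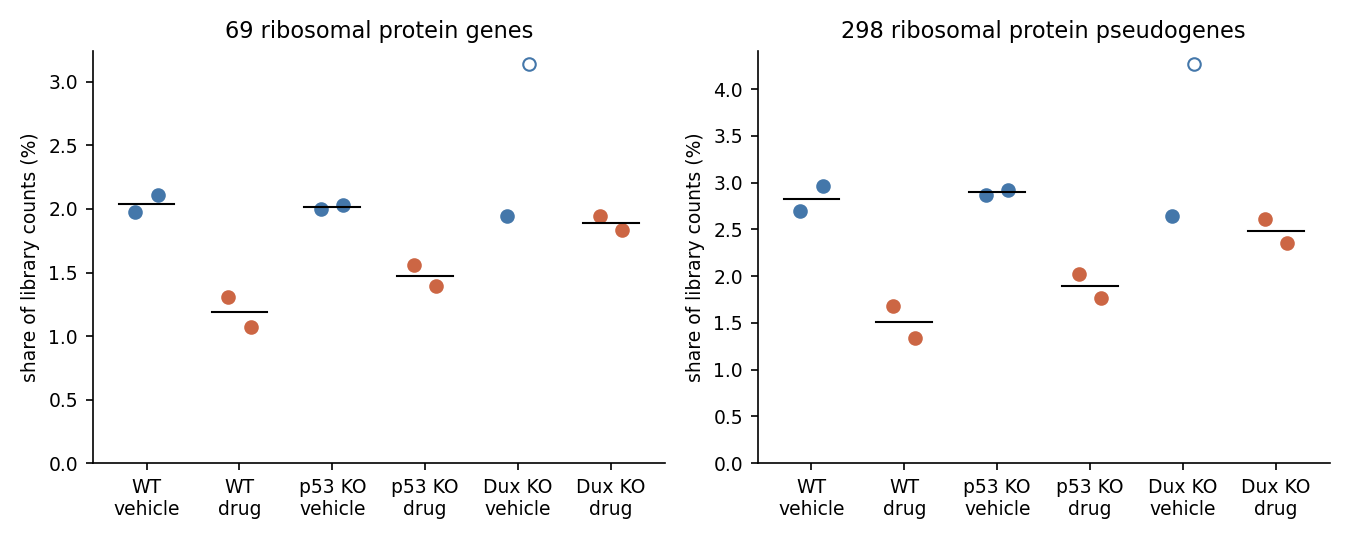
Share of each library's counts (%) held by the 69 ribosomal protein genes (left) and by 298 ribosomal protein pseudogenes (right), 1 point per library, with lines at the mean of 2 libraries. Blue is vehicle, orange is doxorubicin, and the open point is the recovered Dux KO control 2. The genes lie between 1.07% and 1.31% in drug-treated wild type and at 3.14% in the open point and the pseudogenes at 4.26% in that library.

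Ribosomal protein genes have many processed copies in the genome, and 68 of the 69 members share at least one 50-base stretch of transcript with another annotated gene, with a median of 24.4% of stretches shared. The 298 genes with a pseudogene symbol of this family held 2.69% and 2.96% of counts in wild-type vehicle libraries, more than the genes themselves, and 1.68% and 1.34% after the drug. How the authors' counting placed reads with several matches was not given, so a member's level is uncertain where it has copies. Per kilobase of exons the members ran from 14.4 (Rps15a) to 1160 CPM (Rpl8) in wild-type vehicle, with a median of 76.2. The length joins all annotated exons of a gene, 6270 bases for Rps15a and 1359 for Rpl8. Its part in this range was not tested. The 13 members with under 10% of shared stretches had a median of 136 CPM per exonic kilobase and the 24 with 30% or more had 95.8. Over all 69 the Spearman correlation of that level with the shared percentage was 0.053. Over the 69 genes the wild-type response and the shared percentage had a Spearman correlation of -0.17, a description over genes of the same libraries.

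In wild-type cells, doxorubicin lowered 61 of the 69 genes and raised 1, with a median log2 change of -1.05 (quartiles -1.31 and -0.85). Over all 28643 genes tested the median change was 0.13, 23.4% were called lower and 29% higher at an edgeR adjusted p under 0.05. The changes of the 69 genes ran from -1.54 to 0.43 (log2), and 67 were negative. Scaling by relative log expression moved the median of all genes by 0.10 to 0.23 and that of the members to -0.95, with the same counts of 61 and 1. In the authors' deposited table, 65 of the members are lower and 1 is higher past an adjusted p of 0.05, with a median log2 fold change of -1.02.

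**Figure D2:**
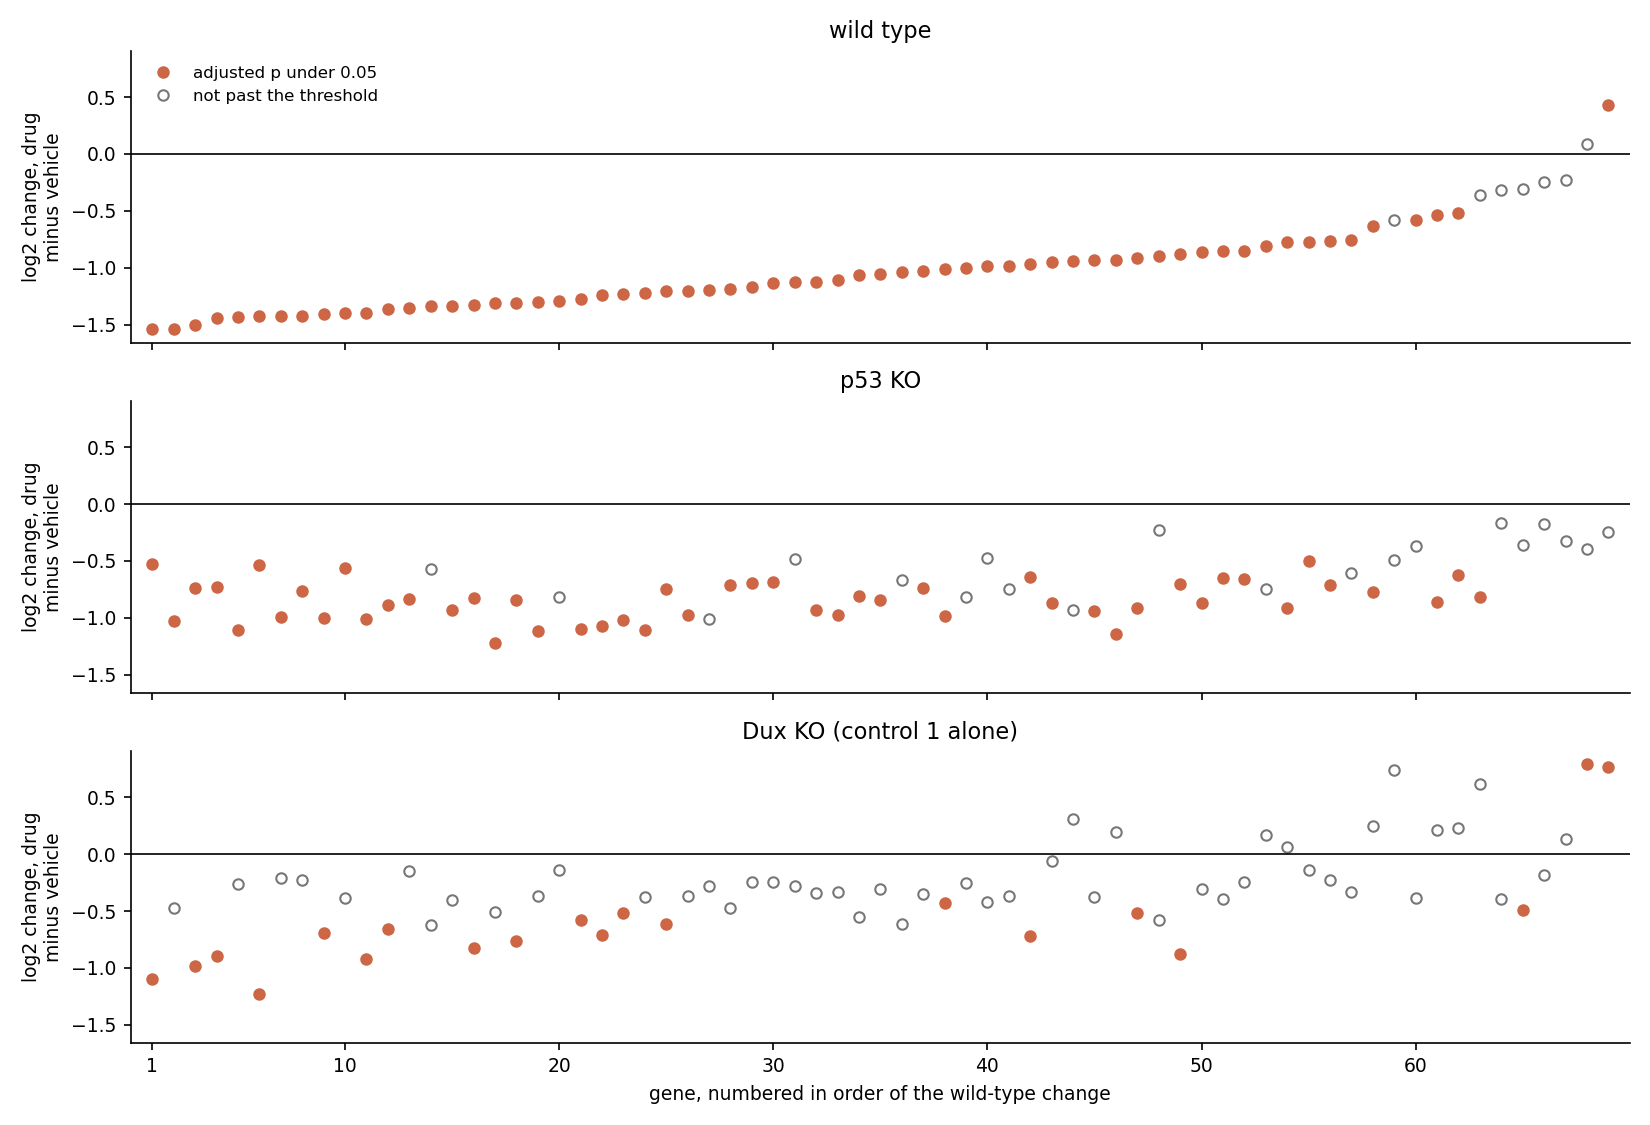
Fitted log2 change (drug minus vehicle) of each of the 69 genes in wild type, p53 KO and Dux KO, numbered from the lowest wild-type change to the highest. Filled points passed an adjusted p of 0.05. Filled points lie below 0 for 61 genes in wild type, 49 in p53 KO and 18 in Dux KO, where vehicle is control 1 alone.

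Among large-subunit genes 35 of 36 fell, with a median log2 change of -1.13, and the exception was Rpl10l. Among small-subunit genes 26 of 33 fell and Rps28 rose, with a median of -0.93. Rpl5 and Rpl11, the proteins of the 5S ribonucleoprotein that bind Mdm2, were both among those that fell. Rpl11 had 60.8 and 60.9 CPM under vehicle and 23.9 and 19.2 CPM after the drug, a log2 change of -1.50 ± 0.19 (SE, adjusted p = 0.00026). Rpl5 had 136 and 140 CPM under vehicle and 58.7 and 49.2 after the drug, a log2 change of -1.36 ± 0.13. For both genes the drug libraries lay under every wild-type vehicle library, as for 67 of the 69 members and 38.9% of all genes. Of 11 members whose proteins are known to bind Mdm2, 10 fell and Rps27l did not pass the test, with a median of -1.19.

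Rps7, a small-subunit protein needed for processing of 18S ribosomal RNA, fell from 59.0 and 60.4 CPM to 22.1 and 19.0 (log2 change -1.54 ± 0.16, adjusted p = 7.8e-05). Rpl7l1, a paralogue of Rpl7 that acts in the nucleolus during assembly, fell from 231 and 249 CPM to 86.0 and 78.8 (-1.54 ± 0.13, adjusted p = 2.6e-05). These were the lowest values of the 69. The whole span of Rpl7l1, 8766 bases, is overlapped by Gm26904 on the opposite strand, at 932 CPM on average against 168. Rpsa, also known as the laminin receptor, fell from 315 and 320 CPM to 135 and 98.4 (-1.44 ± 0.16). Of 10 members known to be mutated in Diamond-Blackfan anaemia, an inherited failure of red cell production, 9 fell. The exception was Rps19, the gene most often mutated in it, with 121 and 126 CPM under vehicle and 105 and 87.0 after the drug (-0.36 ± 0.19, adjusted p = 0.14). In the authors' deposited table Rps19 is lower, with a log2 fold change of -0.32 and an adjusted p of 0.008.

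The stalk proteins, which recruit elongation factors, all fell and by less than the median member. Rplp0 went from 405 and 409 CPM to 289 and 254 (-0.58 ± 0.12), Rplp1 from 517 and 531 to 328 and 286 (-0.77 ± 0.11), and Rplp2 from 36.2 and 32.8 to 20.4 and 16.8 (-0.89 ± 0.16). Rps6, the substrate of S6 kinase, fell from 181 and 197 CPM to 80.5 and 72.7 (-1.30 ± 0.17). All 7 measured proteins of the peptide tunnel and its exit fell, with a median of -1.23, among them Rpl22 (-1.42 ± 0.19), Rpl26 (-1.29 ± 0.26) and Rpl39 (-0.94 ± 0.31). Of 5 proteins around mRNA entry and decoding 4 fell, with a median of -0.63, and Rps2 did not pass the test. Rps4x (-1.22 ± 0.16), Rpl10 (-1.33 ± 0.19), Rpl13a (-1.31 ± 0.16), Rpl23 (-0.81 ± 0.24) and Rps27a (-1.19 ± 0.17), whose protein is made as a fusion with ubiquitin, fell as well.

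Members that did not pass the test in wild type included Rps21, Rps19, Rps4l, Rpl10l, Rps2 and Rps27l, named here after their values were seen. Rps4l and Rpl10l are 2 of 7 members annotated with a single exon. All of them except Rpl10l, which is protein coding, are the processed pseudogenes named above. Of these 7 5 fell, with a median of -0.92, and of the 62 genes with introns 56 fell and 1 rose, with a median of -1.11. Without the 6 pseudogenes, 56 of 63 members fell and 1 rose in wild type, 45 fell in p53 KO, and 17 fell and 2 rose in Dux KO. A level of such a copy can hold reads of the parent gene and of a gene around it. Rps3a3 (694 CPM on average) lies inside Pde4d (711), and Rps12l1 (251) inside Nipa1 (259), the latter on the opposite strand.

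Rps28, a small-subunit protein at the mRNA exit, was the gene that rose in wild type, from 69.1 and 76.2 CPM to 106 and 89.1 (0.43 ± 0.14, adjusted p = 0.030). Its annotated span of 5536 bases (chr17:33819027-33824562) overlaps Kank3 on the opposite strand for 3892 bases. Deposited FPKM values match a length equal to the whole gene span in 98.0% of 16785 genes, and counts over introns and without regard to strand would give the shared bases to both genes. Kank3 had 79.6 and 82.1 CPM under vehicle and 138 and 119 after the drug, a log2 change of 0.67 that passed the test. Rps28 and Kank3 cannot be told apart here. Of the 69 members 25 overlap another annotated gene, small RNAs not counted. They include Rpl7l1, Rpl13a (2840 bases with Gm45713 on the same strand, 521 and 491 CPM on average) and Rpl35. The last shares 4045 bases with Wdr38 on the opposite strand (55 and 55.3 CPM). The part of shared reads in their responses was not tested. The call for Rps28 was lost on log2(FPKM + 1) with limma (0.44, adjusted p = 0.076), with the recovered library in the fit (0.44, adjusted p = 0.10), and without either wild-type vehicle library or drug library a (0.30 to 0.50, adjusted p 0.073 to 0.19).

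**Figure D3:**
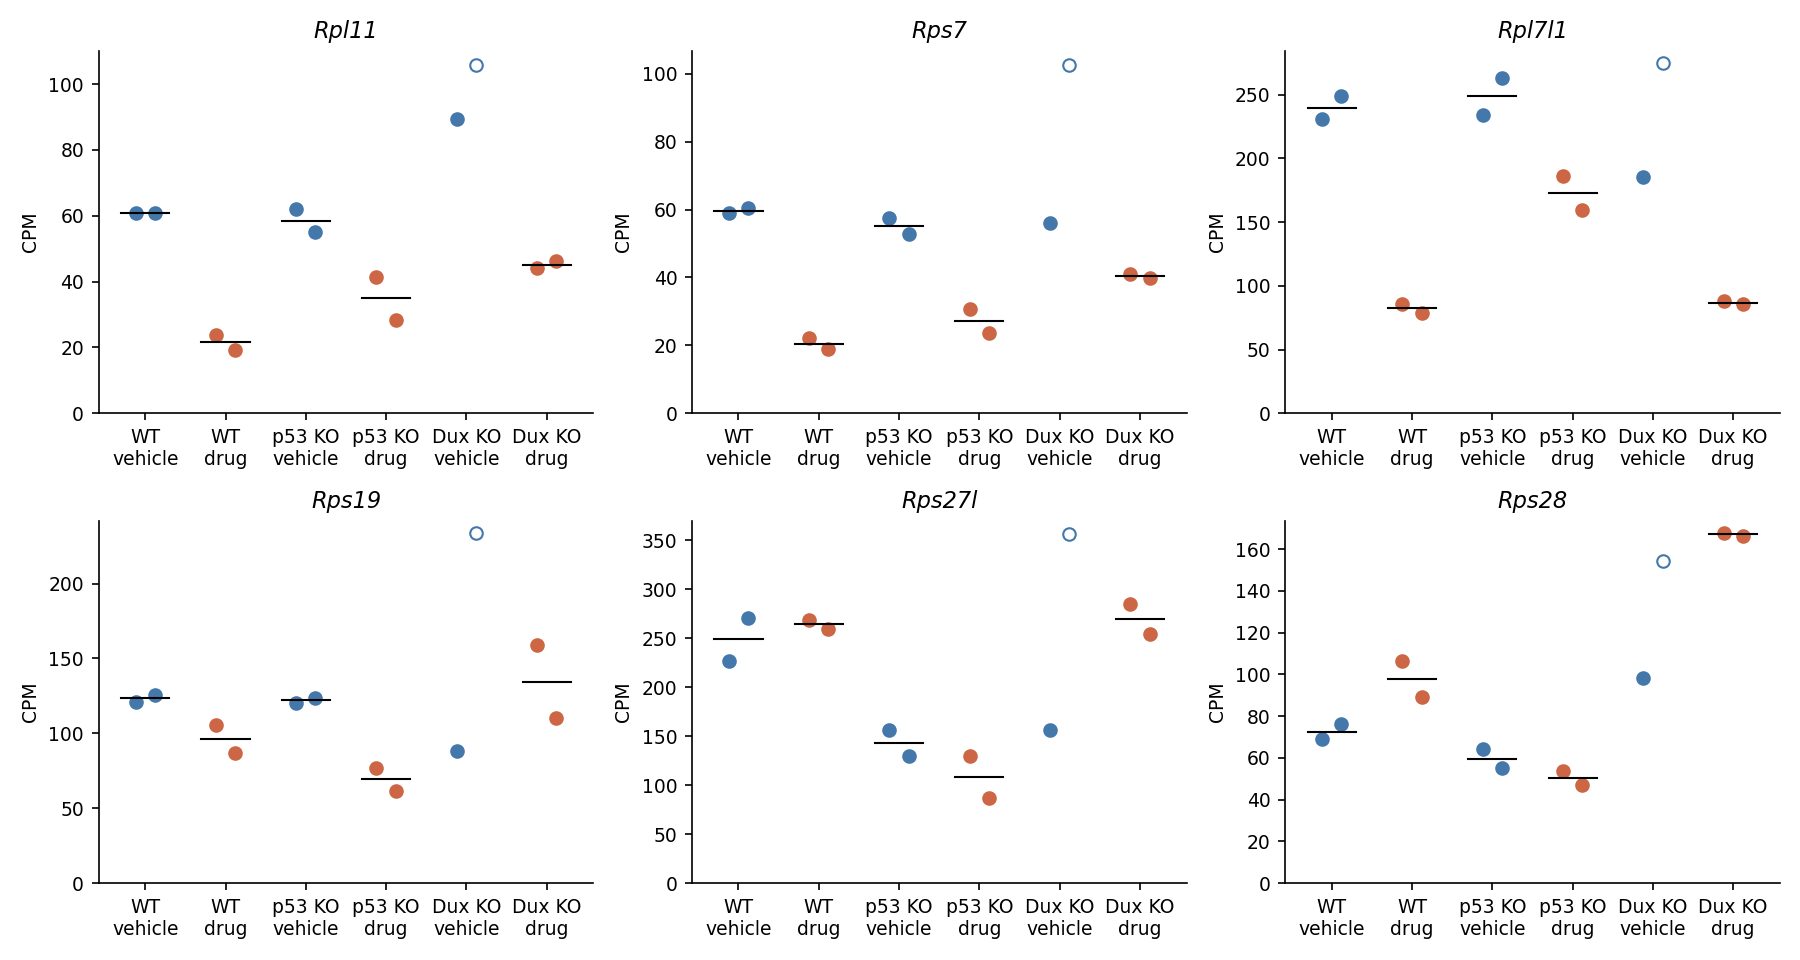
Level in CPM of 6 genes in each library, with lines at the mean of 2 libraries. Blue is vehicle, orange is doxorubicin, and the open point is the recovered Dux KO control 2. Rpl11, Rps7 and Rpl7l1 lie lower after the drug in each genotype. Among drug libraries Rps27l is lowest in p53 KO, and Rps28 is highest in drug-treated Dux KO.

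Rps27l, a paralogue of Rps27 and a known target of p53, had 227 and 270 CPM in wild-type vehicle libraries and 269 and 260 after the drug (0.09 ± 0.19, adjusted p = 0.72). In p53 KO it had 157 and 129 under vehicle and 130 and 87.2 after the drug (-0.40 ± 0.19, adjusted p = 0.18). Under the drug all p53 KO libraries lay below the wild-type ones, a log2 difference of -1.28 ± 0.20 (adjusted p = 0.00079). Such a gap was found in 7 of the 69 members and 37.2% of all genes. Rps27, the partner of Rps27l, was under the count minimum with at most 9.34 CPM in any library. It fell in wild type by 0.98 on the log2 scale. Rpl22l1, the paralogue of Rpl22, was also under the minimum and went from 20.4 and 22.9 CPM to 6.50 and 5.38, a log2 change of -1.86 that passed the test. Rpl39l, the germline paralogue of Rpl39, had 17.5 CPM in p53 KO line 1 and 72.3 in line 2 under vehicle, with 58.2 and 60.9 in wild type. Rpl36a, a large-subunit protein, had 21.6 and 24.0 CPM in wild-type vehicle and 11.6 and 6.95 after the drug.

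The 20 named genes under the minimum moved in the same direction: 18 fell in wild type and none rose, with a median of -1.25. Fau, whose protein is a fusion containing small-subunit protein eS30, fell from 54.3 and 52.2 CPM to 19.8 and 17.4 (log2 change -1.52). Rack1, a scaffold on the small subunit, fell by 0.75 on the log2 scale. Of 16 translation factors and partners whose mRNAs carry the pyrimidine motif, 12 fell and none rose (median -0.86), with Eif4b at -1.62 and Npm1 at -1.60 the lowest. Of the 13 members with an annotated start of 5 pyrimidines 12 fell, with a median of -1.05, and of the 36 without one 31 fell and 1 rose, with a median of -1.20. Members with CCGGAAG had a median of -1.17 and those without it -1.12. The 26 intron-containing members that host small nucleolar RNAs had a median of -1.09 and the 36 that do not, -1.12.

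Genes that act on ribosomal proteins were mixed. Of 12 regulators 5 fell and 2 rose in wild type: Myc went from 1.94 and 0.97 CPM to 10.7 and 13.6 (log2 change 3.06), Rptor, a subunit of the mTOR complex, rose by 1.32, and Gabpa, the ETS factor, fell by 0.86 on the log2 scale and Mycn by 0.83. Of 13 chaperones and importins of ribosomal proteins 8 fell and none rose, with Bccip at -1.98 and Ipo5 at -1.66. The 78 genes of the mitochondrial ribosome, a list added after the data were seen, had 41 lower and 4 higher with a median of -0.55.

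In p53 KO cells 49 of the 69 genes fell after doxorubicin and none rose, with a median log2 change of -0.77 and all 69 values negative. Of all genes tested 8.09% were called lower. Rpl13a, a protein of the large subunit, had the lowest value, from 756 and 737 CPM to 369 and 273 (-1.22 ± 0.16, adjusted p = 0.0032). Rps14 (-1.14 ± 0.26), Rps6 (-1.11 ± 0.17) and Rps4x (-1.10 ± 0.16) were also among the lowest. Rpl5 fell from 125 and 124 CPM to 73.7 and 61.7 (-0.88 ± 0.13), and Rpl11 from 62.0 and 55.0 to 41.5 and 28.5 (-0.74 ± 0.19). Rps19, not called in wild type, fell from 120 and 124 to 77.2 and 61.7 (-0.81 ± 0.19). The difference between these 2 responses of Rps19 did not pass the test. The median over members was -0.64 in line 1 and -0.93 in line 2, each drug library set against the vehicle library of its line, and all 69 genes were lower in both lines.

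The number called in p53 KO depended on the fit. With the line as a block 65 fell (16.4% of genes lower), and 47 when the blocked fit also held the recovered control 2 (12.6%). With control 2 and no block 23 fell (5.51%), and limma on log2(FPKM + 1) called 5 (3.07%), with a median of -0.48. Leaving out p53 KO drug library 1 or 2 gave 61 (9.03%) and 36 (7.12%). Across the 69 genes the responses of wild type and p53 KO, which share no library, had a Pearson correlation of 0.59 and a Spearman correlation of 0.46, given as a description.

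The response of p53 KO was less negative than that of wild type in 57 of the 69 genes, with a median difference of 0.21 (log2) against 0.05 over all genes. Under scaling by relative log expression it was less negative in 47 genes, with a median of 0.09 and all genes shifted by -0.12. The direction depended on single libraries. Without p53 KO drug library 1 it was less negative in 37 genes, with a median of 0.03. Without drug library 2 it was so in 61, with a median of 0.425. With all 11 libraries the difference itself passed the test in 5. It was higher in Rpl7l1, Rpl27, Rpl12 and Rpsa, where 9.9% of all genes were called, and lower in Rps28, where 10.3% were. Rpl7l1 went from 234 and 263 CPM to 186 and 159 in p53 KO (-0.53 ± 0.13), with a difference from wild type of 1.02 ± 0.18 (adjusted p = 0.0047). Rpl27 went from 73.7 and 62.5 CPM to 47.3 and 46.4, a difference of 0.89 ± 0.21, Rpl12 from 109 and 107 to 85.7 and 60.7, a difference of 0.84 ± 0.23, and Rpsa from 313 and 325 to 206 and 181, a difference of 0.72 ± 0.22. For each of these 4 the drug libraries of p53 KO lay above those of wild type. The same was found in 28 of the 69 members and 36.1% of all genes. Rps28 had 64.3 and 55.0 CPM under vehicle and 53.5 and 47.0 after the drug, a difference of -0.68 ± 0.20 (adjusted p = 0.043), and Kank3, which overlaps it, had a difference of -0.65. Rpl7l1 kept its call with the recovered library (1.01, adjusted p = 0.024).

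With the line as a block, 22 differences were called, 19 higher and 3 lower, where 37.7% of all genes were. The count was 1 with the recovered library (8.65% of genes higher), 15 without p53 KO drug library 2 (11.6% higher), and 1 to 3 when either wild-type vehicle library, either wild-type drug library or either p53 KO vehicle library was left out. Without either Dux KO drug library, which enters through the shared spread, it was 2. The share of all genes called is not given for the counts of 1 to 3 and of 2. With all 11 libraries and no block, the share of members called was below the background in both directions. Without p53 KO drug library 2 the share called higher was above it. Mitochondrial ribosomal proteins had 20 of 78 differences higher and none lower, with a median of 0.48.

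Between p53 KO and wild type under vehicle none of the 69 genes passed the test in edgeR, 2 had an unadjusted p under 0.05, and DESeq2 called 1, where 0.887% of all genes were called in either direction. Quartiles of the difference were -0.13 and 0.06 (log2). With the line as a block, which sets p53 KO line 1 against wild type, 10 were called, 8 higher and 2 lower. Of all genes 19.1% were called, and the 2 lower members were Rpl10l (-0.61) and Rps27l (-0.59). Under the drug 13 members were higher in p53 KO and 3 lower, against 21.7% and 22% of all genes, with a median of 0.27. The authors' deposited table has 6 higher and 3 lower, with a median of 0.26. The highest were Rpl12 (1.13 ± 0.16), Rpl7l1 (1.07 ± 0.13), Rpl35 (0.93 ± 0.26), Rpl27 (0.90 ± 0.15) and Rpl22 (0.87 ± 0.19), and the lower ones were Rps27l, Rps28 (-0.96 ± 0.14) and Rpl10l (-0.56 ± 0.13). Rpl11 was higher as well (0.70 ± 0.19), with 41.5 and 28.5 CPM against 23.9 and 19.2, while Rpl11 has an adjusted p of 0.0826 in the authors' deposited table.

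Under scaling by relative log expression the split under the drug was 8 higher and 6 lower (18.7% and 24.4% of all genes), with a shift of all genes by -0.11. It was 34 and 3 without p53 KO drug library 2 (22% and 20.9%) and 6 and 5 without drug library 1 (19.1% and 20.8%). It was 6 and 3 without wild-type drug library b (13.8% and 15.3%). The block, which sets p53 KO line 1 against wild type, gave 35 and 4 (54.3% of all genes called). The recovered library gave 7 and 3 (21% and 21.9%).

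In Dux KO cells, set against control library 1 alone, 18 of the 69 genes fell and 2 rose, with a median log2 change of -0.37 against 0.00 over all genes, and 11.9% of all genes were called lower and 14.5% higher. Rpl27 went from 68.1 CPM to 31.2 and 26.9 (-1.23 ± 0.17, adjusted p = 0.0012), Rpl7l1 from 185 to 88.1 and 85.4 (-1.09 ± 0.15), Rpl11 from 89.4 to 44.1 and 46.2 (-0.98 ± 0.22), Rpl6 fell by 0.92 and Rpsa from 489 to 273 and 253 (-0.90 ± 0.18). Rps27l (0.79 ± 0.24, adjusted p = 0.041) and Rps28 (0.76 ± 0.18, adjusted p = 0.013) were called higher. Rps27l had 156 CPM in control 1, 285 and 254 after the drug, and 356 in the recovered control 2.

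Of the 6 pairs of libraries that form a group, control 1 and the recovered control 2 had the largest median difference for these genes. All 69 are higher in control 2, by a median of 0.84 (log2), or 1.79-fold, while 12220 genes with at least 10 CPM on average had a median of 0.08. The same ratio was -0.03 between the p53 KO vehicle libraries and 0.08 between the wild-type ones. Rps19 had 88.1 CPM in control 1 and 233 in control 2, Rpl39 33.8 and 139, and Rplp1 643 and 1255. Line 1 had a median response of -0.30 with 57 genes lower, and line 2, set against its recovered vehicle library, of -1.27 with 68 lower.

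**Figure D4:**
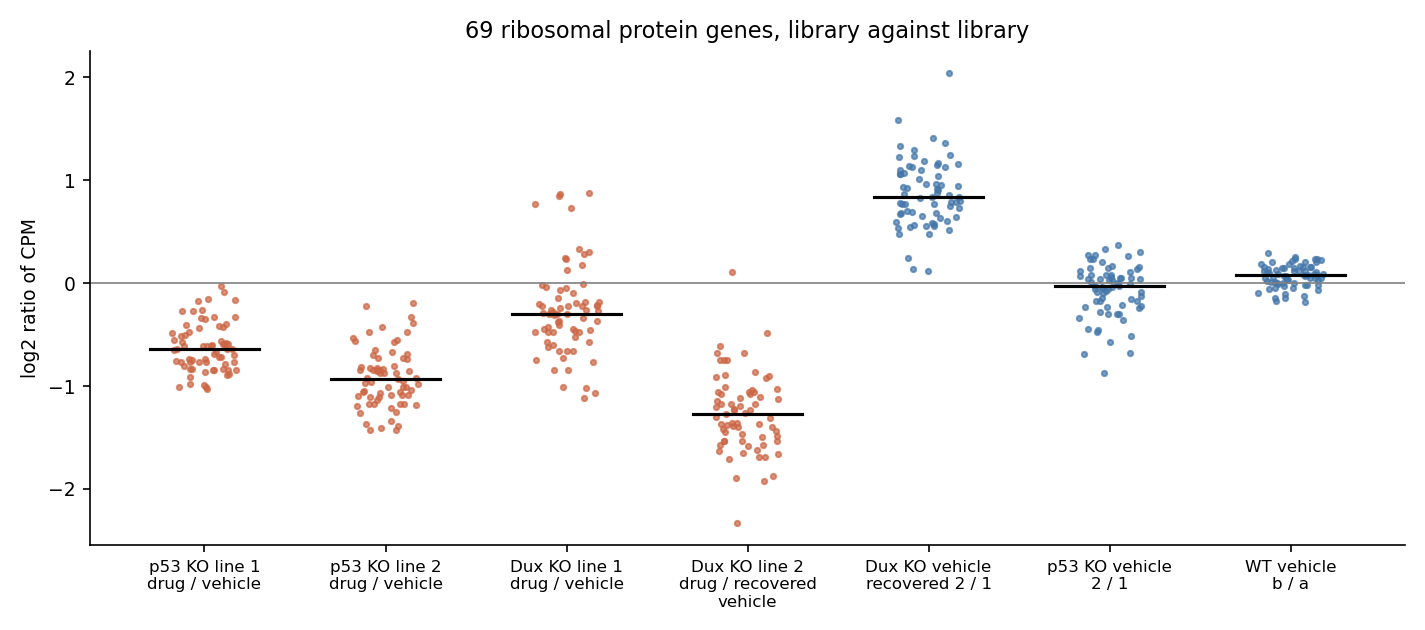
Log2 ratio of CPM between pairs of libraries for the 69 genes, 1 point per gene with lines at the medians. Orange pairs set a drug library against the vehicle library of its line, blue pairs set 2 vehicle libraries of a group against each other. The Dux KO vehicle libraries differ by a median of 0.84, the p53 KO and wild-type ones by -0.03 and 0.08.

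With both Dux KO control libraries in the edgeR fit, 51 genes fell and none rose, with a median of -0.92, where 16.9% of all genes were called lower. Rpl27 then had -1.54 ± 0.20, Rpl7l1 -1.42 ± 0.19 and Rpsa -1.22 ± 0.21, and Rps27l had 0.07 ± 0.32 (adjusted p = 0.91) and Rps28 0.39 ± 0.21 (adjusted p = 0.17). With the line as a block and both controls, 56 fell and 1 rose, where 24.2% of all genes were called lower. Limma on log2(FPKM + 1), which also holds both controls, called 13 lower and 1 higher. Its median was -0.52, against 0.00 over all genes. With control 2 in place of control 1, 65 fell, where 15.7% of all genes did, with a median of -1.23 and a log2 change of -0.40 for Rps27l. Leaving out Dux KO drug library 1 or 2, with control 1 alone, left 4 lower and 1 higher in each case, with 7.23% and 5.76% of all genes lower. All groups share one estimate of spread, and the count was 10 without either wild-type vehicle library, 13 without wild-type drug library a, and 29 and 30 without p53 KO drug libraries 1 and 2 (32.2% and 32.7% of all genes called). For the fits without a wild-type library that share is not given here. Over the 69 genes the Pearson correlation of the wild-type response with the Dux KO response was 0.69 with control 1 and 0.83 with both controls, again a description.

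The difference between the Dux KO and wild-type responses with control 1 was positive for 66 genes, with a median of 0.70 against 0.06 over all genes, and passed the test in 5, where 2.1% of all genes were called higher. These were Rps18, Rps23, Rps7, Rps15a and Rps9, all of the small subunit. Rps18, from 117 and 124 CPM to 47.8 and 41.9 in wild type, had 136 CPM in Dux KO control 1 and 117 and 119 after the drug, a difference of 1.21 ± 0.23 (adjusted p = 0.022). Rps23, at the decoding centre, had 79.6 CPM in control 1 and 78.8 and 64.5 after the drug (1.20 ± 0.26), and Rps7 had 56.0 and then 41.0 and 39.8 (1.07 ± 0.25). Rps15a (0.89 ± 0.20) had 100.3 CPM in control 1 and 96.7 and 95.4 after the drug, and Rps9 (0.75 ± 0.17) had 427 and then 518 and 482.

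None of the 5 kept its call with the recovered library. In control 2 Rps18 had 307 CPM, Rps23 204, Rps7 103, Rps15a 224 and Rps9 774, and edgeR called 0 of 69 differences, with 0 at an unadjusted p under 0.05 and a median of 0.18. DESeq2 with control 1 called 15 (5.17% of genes higher). The block with control 1, which leaves the Dux KO response to line 1, called 45 (20.6% of all genes), and the block with both controls called 0. Leaving out any wild-type library or Dux KO drug library left 0 or 1, and leaving out p53 KO drug library 1 or 2 gave 27 in each case (4.76% and 4.85% of genes higher).

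Under vehicle, Dux KO control 1 was higher than wild type in 1 of the 69 genes at an edgeR adjusted p under 0.05, where 0.656% of all genes were called higher. No gene was called when any wild-type library or Dux KO drug library was left out, and 6 were without p53 KO drug library 1 or 2 (2.29% and 2.33% of genes higher). With both controls 4 were higher, the median was 0.65, and 1.1% of all genes were called higher, and with control 2 in place of control 1 the count was 41 (2.42% higher). The block with control 1 called 25, 19 higher and 6 lower, where 18.7% of all genes were. The block with both controls called 15, all higher (6.4% of genes higher). Both blocked fits set Dux KO line 1 against wild type.

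Under the drug, where both Dux KO libraries have their own counts, 49 of the 69 genes were higher in Dux KO than in wild type and none was lower, against 15.6% of all genes called higher, with a median of 0.85 (log2), or 0.00 over all genes. Rpl32l, one of the processed pseudogenes, had 130.4 and 131.5 CPM against 55.0 and 35.8 in wild type (1.53 ± 0.31, adjusted p = 0.0062), and Rps3a1 had 77.0 and 75.5 against 31.6 and 24.5 (1.44 ± 0.18). Rpl5 had 124 and 123 CPM against 58.7 and 49.2 (1.20 ± 0.13), and Rpl11 44.1 and 46.2 against 23.9 and 19.2 (1.07 ± 0.19). For all of these the Dux KO drug libraries lay above the wild-type ones. That held for 63 of the 69 members and 39.2% of all genes. Rpl7l1 did not differ past the threshold (0.07 ± 0.13, adjusted p = 0.69), nor did Rps27l (0.03 ± 0.19, adjusted p = 0.93). Scaling by relative log expression gave 44 higher (13% of all genes) and 1 lower, and the table the authors deposited has 59 higher and 2 lower. This comparison and the wild-type response share the wild-type drug libraries, as do the comparisons of p53 KO with wild type.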

How the data were processed

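Poly(A) RNA-seq of 12 libraries in 6 groups was analysed. The members and lists were chosen with earlier results of these data known. The count of reads per gene was taken from the authors' deposited table, with 1 column per library. A deposited table also holds FPKM for each library. Their log2 fold changes and adjusted p-values were read from the authors' deposited table. TopHat2, DESeq and DESeq2 with build mm10 are named in the submitters' processing notes, while versions, counter, annotation and strand are not given in the sources used here. The 6 deposited columns of averaged FPKM were not used.

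The repeated column (Dux KO control 2) was left out. Its counts were recovered from FPKM, giving a total of 55643718. Of 3633 low values 99.92% came out whole to within 0.15 reads. In the libraries with known counts at least 77.63% of genes came out exact and at least 96.15% within 1 read or 1%. Positions and lengths came from GENCODE M21 (GRCm38).

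The test was edgeR 4.0.16 (R 4.3.3), scaled by TMM after filterByExpr with a minimum count of 10, with a mean per group over 11 libraries, glmQLFit and glmQLFTest, 5 residual degrees of freedom, and Benjamini-Hochberg adjustment over 28643 genes, called at an adjusted p under 0.05. P-values measure the spread between these libraries. Of counts of at least 500, only 26.4% to 33.4% were odd, so counts are not independent single reads. The fits were tested on simulated data. Levels are CPM on the TMM scale. Alternatives were relative log expression, no filter, DESeq2 1.42.0, limma 3.58.1 on log2(FPKM + 1) or log2(FPKM + 0.1) with 1 FPKM in 2 libraries or no filter, all with the 12 FPKM columns, the line block, the recovered library, and each library left out. Leaving out Dux KO control 1 with the recovered control 2 kept was added after the data were seen. In the line block a knockout's group means stand for its line 1, so its comparisons with wild type set line 1 against wild type.

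Same-numbered knockout libraries come from the same line, per the labels. Their deviations from group means correlated at 0.43 in p53 KO and 0.18 in Dux KO over 28643 genes. Genes named are a fixed set of paralogues, stalk, 5S and Mdm2-related members, and the 5 highest and 5 lowest called members of each comparison. Of other lists the 2 highest and 2 lowest called are named. Some members that this rule names are not reported here.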

Additional observations from a re-analysis of the deposited data

Results flagged for a closer look

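Drug responses of a knockout that differed from wild type past the threshold were the following. For p53 KO the log2 differences were 1.02 in Rpl7l1, 0.89 in Rpl27, 0.84 in Rpl12, 0.72 in Rpsa and -0.68 in Rps28. Rps28 overlaps Kank3 for 3892 bases and Rpl7l1 overlaps Gm26904 for 8766. For Dux KO with control 1 alone they were 1.21 in Rps18, 1.20 in Rps23, 1.07 in Rps7, 0.89 in Rps15a and 0.75 in Rps9, and with both controls they were 0.49, 0.35, 0.55, 0.18 and 0.24, none past the threshold.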

How the results depend on the processing

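Of 81 called values of named members, 1078 recomputed values kept direction and threshold in 828, missed the threshold in 246 and changed sign in 4, all with Dux KO control 2 in place of control 1: Rps27l in the Dux KO response (-0.40), and in the Dux KO difference Rps9 (-0.11), Rps15a (-0.27) and Rps23 (-0.16). The replicate block ended none of the 81 calls, and the block with both controls ended 16. Numbers of members called in either direction follow for settings that moved them by more than 1.5 times, and the cause was not tested. Shares of all genes called stand above for some of these settings. For the rest, a change in the members cannot be told from one over all genes.

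In the p53 KO response (49) limma on FPKM called 5 with either pseudocount and 1 without a filter, and the recovered library gave 23. In the Dux KO response (20) limma without a filter called 12, the recovered library gave 51, the block with it 57, and control 2 alone 65. The p53 KO difference (5) had 22 with the block and 1 with the recovered library. The Dux KO difference (5) had 8 without a count filter, 15 in DESeq2, 45 with the block, and 0 in each limma fit, with the recovered library, with the block and that library, and with control 2 alone. Under vehicle p53 KO (0) had 10 with the block and 1 in DESeq2 and in the block with the recovered library. Under vehicle Dux KO (1) had 4 in DESeq2 and with the recovered library, 3 and 2 in limma, 25 with the block, 15 with the block and the recovered library, and 41 with control 2 alone. Under the drug p53 KO (16) had 39 with the block and 10 with the recovered library. The block counts of a knockout against wild type are for line 1. Leaving out 1 library of the groups compared gave 5 in the Dux KO response, 1 to 15 in the p53 KO difference, 0 to 1 in the Dux KO difference, 0 in Dux KO under vehicle and 9 to 37 in p53 KO under the drug. The wild-type response (53 to 56 called without 1 of its libraries) and Dux KO against wild type under the drug (33 to 43) stayed within 1.5 times. With 2 libraries a group and 5 residual degrees of freedom, small differences were not detectable.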
